A study of Drosophila melanogaster with 6 samples.

Results

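The telomere-side tips of the chromosome arms X, 2L, 3L and 3R of Drosophila melanogaster were described in 4 chromatin libraries from ovaries. The tips were chosen by position alone, as the first 200 kb of X, 2L and 3L and the last 200 kb of 3R in the genome build dm3. They cover 1 to 200000 on X, 2L and 3L and 27705101 to 27905100 on 3R, and hold 8000 of the 1203812 windows of 100 bp on the major arms (0.665%), which are these 4 with 2R and chromosome 4. Distances are counted from the telomere-side end of the assembled arm, which on 3R is the end of the last listed window.

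The ovaries came from virgin females up to 6 h old, either of the wild-type strain Canton S or of a mutant whose titles read f and whose strain is given as su(Hw)fv, called su(Hw)f or the mutant here. The gene su(Hw) codes for a protein that binds DNA through zinc fingers and is best known from the gypsy insulator, and su(Hw)f is an allele with a changed zinc finger. The labels do not say what the added v stands for or which allele each chromosome of a pair carried, nor how many animals were pooled. For every library they give 1.8% formaldehyde. Each genotype had 1 library of input, which is sheared chromatin before precipitation and only a rough guide to the amount of DNA. Each also had 1 library of chromatin brought down by preimmune serum, a control without the antibody. The immunoprecipitations with the antibody were not analysed here. The genotypes also come from separate strains, and effects of strain and of the su(Hw) allele cannot be told apart. With 1 library in each group there is no replicate check, no test was run, and the 95% intervals given cover counting error only.

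Drosophila chromosome ends are kept up by retrotransposons of the HeT-A, TART and TAHRE families, which add themselves to the ends, and not by telomerase. Inward of them lie satellite-like telomere-associated repeats and then unique DNA with genes. Flies can carry chromosomes that have lost terminal DNA, because a protein cap can form on an end whatever its sequence. Reads from repeats often match several places and may be missing from such tables. In the gene table of RefSeq Release 6, another build, the protein-coding genes next to the end of 3L are mthl8, a methuselah-like receptor gene, CG43149 and then Lsp1gamma, a larval serum storage protein. The outermost on 2L are l(2)gl, a cell polarity gene and tumour suppressor, and Ir21a, an ionotropic receptor. On X the order includes CG17636, RhoGAP1A and tyn, and on 3R it is Map205, a microtubule-associated protein, mod, a nucleolar nucleic-acid-binding protein, and krz, an arrestin. Only this order was taken from the table, and no gene was placed on a dm3 window.

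The libraries held between 12173312 and 20596448 reads. Their median 1 kb windows on the major arms had 97 reads for wild-type preimmune, 113 for wild-type input, 170 for mutant preimmune and 155 for mutant input. The tips held 71645, 69422, 116709 and 98748 reads in that order, or between 0.487% and 0.604% of the reads on the major arms. A level below is the number of reads in a stretch as a multiple of what the library median gives for that length. A ratio below is between reads scaled to the totals on the major arms.

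Coverage began closer to the chromosome end in the mutant than in wild type on 3L, 2L and X, and at about the same place on 3R. The start of coverage was taken as the first of 3 successive 1 kb windows at 25% or more of the library median. In input it lay 65 kb from the end of 3L in wild type and 22 kb in the mutant, a difference of 43 kb. On X it lay at 19 kb in wild type and 10 kb in the mutant, and on 2L at 11 kb and 5 kb. On 3R it lay at 10 kb in both genotypes. The preimmune libraries put the start within 1 kb of the input of their own genotype on every tip. The place on 3R depended on the limit in input. At 50% of the median it lay at 11 kb in wild-type input and 18 kb in mutant input. In preimmune it then lay at 9 kb and 10 kb.

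**Figure D1:**
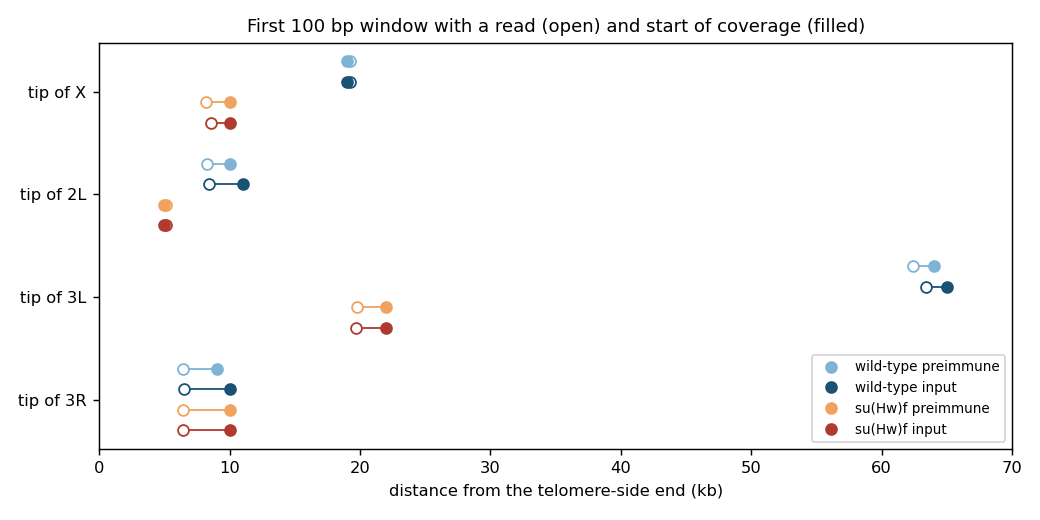
Distance from the telomere-side end, in kb, of the first 100 bp window with any read (open circles) and of the start of coverage (filled circles), for the 4 libraries on each tip. The genotypes part by 43 kb on 3L in input, by 9 kb on X and by 6 kb on 2L, and lie together on 3R at 9 to 10 kb.

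The tip of 3L showed the longest difference. No library had a read in the outermost 19 kb, and mutant reads set in at 3L 19701 to 19800 in input and 19801 to 19900 in preimmune. From 3L 22001 to 62000 the 2 wild-type libraries held 0 reads, while the mutant held 3617 in preimmune and 2659 in input. Scaled to the wild-type totals, the mutant reads came to 2173 and 1797. Set against a floor of 3 counts per library, the mutant was 724-fold higher in preimmune and 599-fold higher in input. With counting error in the mutant included, the exact lower limits of the ratio were 588.8 in preimmune and 486.9 in input. The floor itself is 0.138% and 0.167% of the scaled mutant reads. Wild type was therefore below detection over 40 kb that both mutant libraries covered, with reads in 347 and 354 of 400 windows of 100 bp.

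Over this stretch the mutant itself stood at a low level. From 22001 to 60000 the level was 0.499 in mutant preimmune and 0.4085 in mutant input. It rose to 1.16 and 0.816 at 60001 to 62000 and to 1.34 and 1.13 at 62001 to 64000. The level thus stepped up near the place where wild-type coverage begins, and the step lay outward of it. Over the full 40 kb the level was 0.532 in preimmune and 0.429 in input, against 1.02 and 0.785 over the next 40 kb inward, 66001 to 106000. The outer stretch came to 0.522 of the inner one in preimmune and 0.546 in input. Among 2425 blocks of 40 kb on the same arms outside the tips, 82 were at or below this level in mutant preimmune and 72 in mutant input. None of them had as many windows with reads: of the 1951 and 1908 blocks that did, 0 were at or below it. Windows with reads become fewer as the level drops, so this count is a description only.

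Wild-type coverage of 3L set in gradually. The outermost wild-type reads lay at 3L 62401 to 62500 in preimmune and 63401 to 63500 in input. At 62001 to 64000 wild type held 25 preimmune reads in 9 windows of 100 bp and 7 input reads in 4 windows, against 457 and 350 in the mutant. This was 9.105% and 2.96% of the scaled mutant reads. At 64001 to 66000 wild type held 117 and 77 reads against 270 and 146, and the mutant to wild-type ratio was 1.28 in input (0.966 to 1.71). From 66001 to 76000 the input ratio was 0.972 (0.907 to 1.04), an interval that includes 1. Over the longer stretch 66001 to 106000 it was 0.841 (0.806 to 0.877), with the mutant the lower one.

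**Figure D2:**
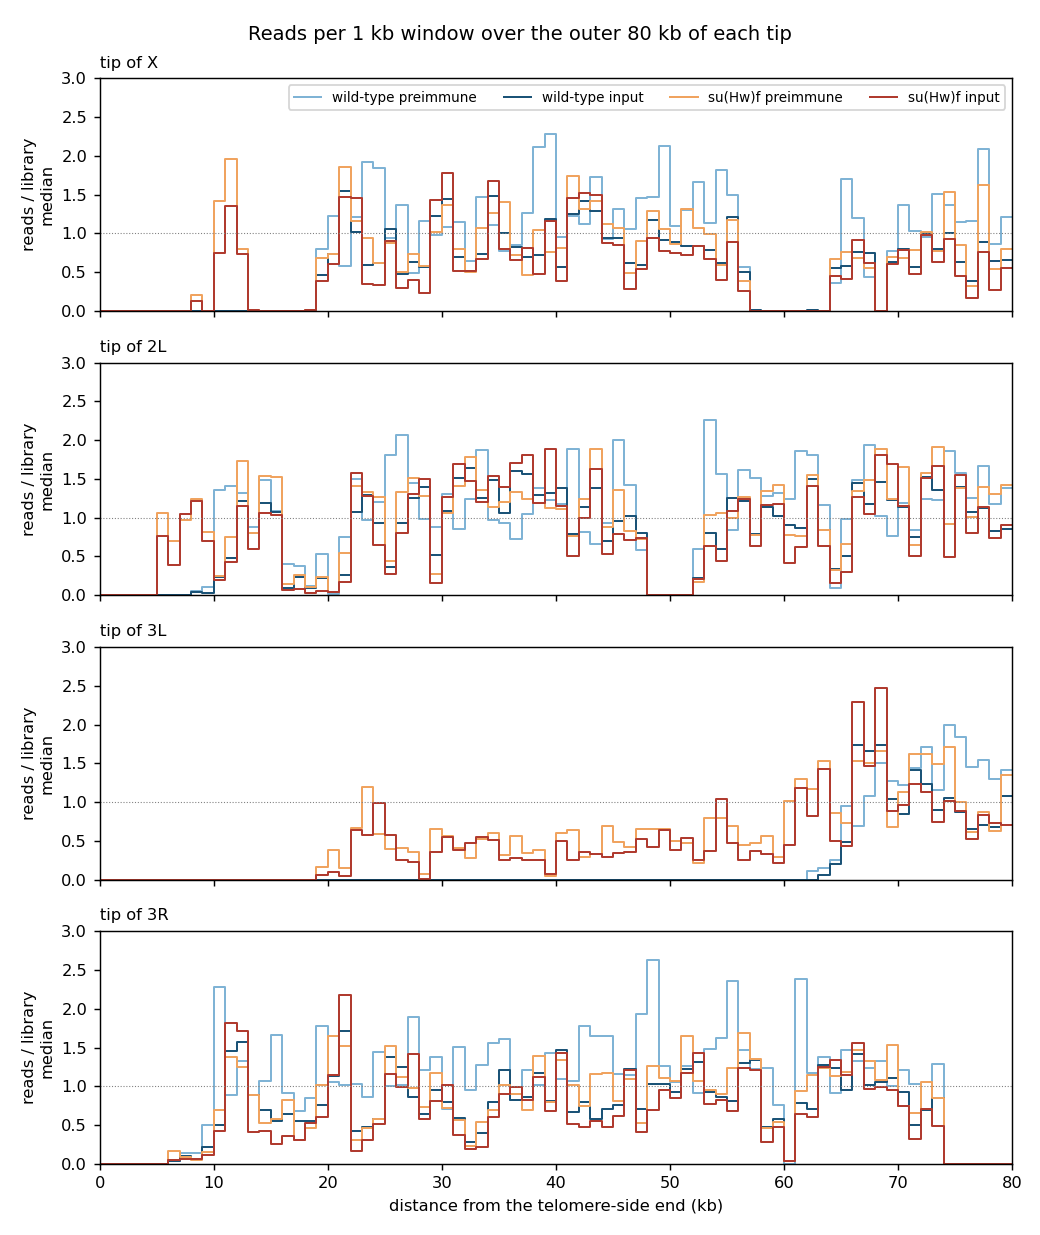
Reads per 1 kb window as a multiple of the library median, on a linear axis, over the outer 80 kb of the 4 tips, 1 line per library. On 3L the su(Hw)f lines run near 0.5 from 22 kb to 60 kb while the wild-type lines are at 0, and on 2L and X su(Hw)f has outer windows near 1.

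On 2L mutant coverage began 6 kb further out in input and 5 kb further out in preimmune. The outermost 5 kb had no reads in any library, and both mutant libraries set in at 2L 5101 to 5200. At 5001 to 8000 the mutant held 465 preimmune and 340 input reads and wild type 0 in each. Against the floor the mutant was 93.1-fold higher in preimmune and 76.6-fold higher in input. The exact lower limits of the ratio were 75.44 and 61.96. Its level there, 0.912 in preimmune and 0.731 in input, was above that of the outer stretch of 3L. At 8001 to 10000 wild type held 15 preimmune reads, all in 2 windows of 100 bp, and 7 input reads in 6 windows, against 350 and 297 in the mutant. These few reads were 7.13% and 3.49% of the scaled mutant reads, so wild type was sparse here and not empty.

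At the wild-type start on 2L the comparison differed between input and preimmune. At 10001 to 12000 the input ratio of the mutant over wild type was 0.8195 (0.603 to 1.12), with 97 and 80 reads. The preimmune ratio was 0.3775 (0.3095 to 0.459). Wild-type preimmune held 269 reads there and mutant preimmune 169. At 16001 to 21000 coverage was low in all 4 libraries, with 140 preimmune and 78 input reads for wild type and 133 and 42 for the mutant. From 22001 to 48000 the input ratio was 0.928 (0.888 to 0.971) and the preimmune ratio 1.007 (0.963 to 1.053).

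On X the extra mutant coverage was an island. At X 10001 to 13000 the mutant held 710 preimmune and 438 input reads, at levels of 1.39 and 0.942, and wild type held 0 in each. Against the floor the mutant was 142-fold higher in preimmune and 98.7-fold higher in input, with exact lower limits of the ratio of 115.3 and 79.92. A smaller patch at 8001 to 9000 held 35 and 19 mutant reads, in 4 and 3 windows of 100 bp. Between the island and the next coverage, at 13001 to 19000, the mutant held only 5 and 3 reads and wild type 0, too few to compare. Wild-type coverage set in at X 19201 to 19300 in both libraries. From 20001 to 57000 the genotypes were covered alike in extent, with reads in 348 to 362 of 370 windows. The mutant to wild-type ratio over it was 0.840 (0.805 to 0.8775) for input and 0.809 (0.778 to 0.841) for preimmune.

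The tip of 3R gave no such difference. The outermost reads lay at 27898601 to 27898700 in 3 libraries and at 27898501 to 27898600 in wild-type input, and the outermost 6 kb had none. At 27895101 to 27899100 wild type had 80 preimmune and 47 input reads, and the mutant 77 and 44. The ratio of the mutant over wild type was below 1 there, at 0.633 (0.410 to 0.976) for input and 0.578 (0.417 to 0.801) for preimmune. Within this stretch 27898101 to 27899100 went the other way in preimmune, with 28 reads in the mutant and 4 in wild type, a ratio of 4.21 (1.47 to 16.5).

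Over the whole 200 kb the genotypes differed by far less than at the outermost windows. In input the mutant to wild-type ratio was 1.107 on 3L (1.085 to 1.129), 0.956 on 2L (0.940 to 0.972), 0.902 on 3R (0.884 to 0.920) and 0.8685 on X (0.848 to 0.889). In preimmune it was 1.121, 1.023, 0.898 and 0.869 in the same order. Among the 484 other blocks of 200 kb on these arms, whose input ratio had a median of 0.995, 16 were above 3L and 32 below X in input. In preimmune 57 were above 3L and 63 below X. With the part outward of the later start of coverage left out, which was decided once the values had been seen, the input ratio on 3L became 0.977 (0.957 to 0.997), so its excess lay in the outermost 65 kb. The 4 tips together were at 0.961 (0.952 to 0.971) for input and 0.979 (0.970 to 0.988) for preimmune. Scaling to the median 1 kb ratio moved the input value to 1.007 and that of 2L to 1.001, and the preimmune value of 2L to 0.990, so these values have no firm direction.

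Inward of the later start, the mutant was lower relative to wild type in the outer part of each tip than in the inner 100 kb. In input the ratio over the 4 tips was 0.850 from the start to 100 kb (0.837 to 0.864) and 0.9685 from 100 kb to 200 kb (0.9565 to 0.981). In preimmune it was 0.8525 (0.8405 to 0.865) and 0.998 (0.986 to 1.011). The outer value was the lower one on 4 of 4 arms in input and on 4 of 4 in preimmune, and scaling of the libraries does not change this order. For 970 blocks of 100 kb outside the tips the input ratio had a median of 0.992 and lay above 0.849 in all but the lowest 5%. In preimmune the median was 0.994 and the lowest 5% began under 0.804. By arm the outer ratio in input was 0.828 on X, 0.843 on 3R, 0.846 on 3L and 0.874 on 2L, and in preimmune 0.807, 0.808, 0.843 and 0.938. Single outer parts thus lay under that limit on X, 3R and 3L in input and on none in preimmune. The outer parts were shorter than the 100 kb blocks, on 3L from 65 kb to 100 kb only, so the limit was not taken at a matched length. Of the 10 kb windows inward of the later start, 1 of 28 was above 1 in the outer part and 12 of 37 in the inner part, in input.

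**Figure D3:**
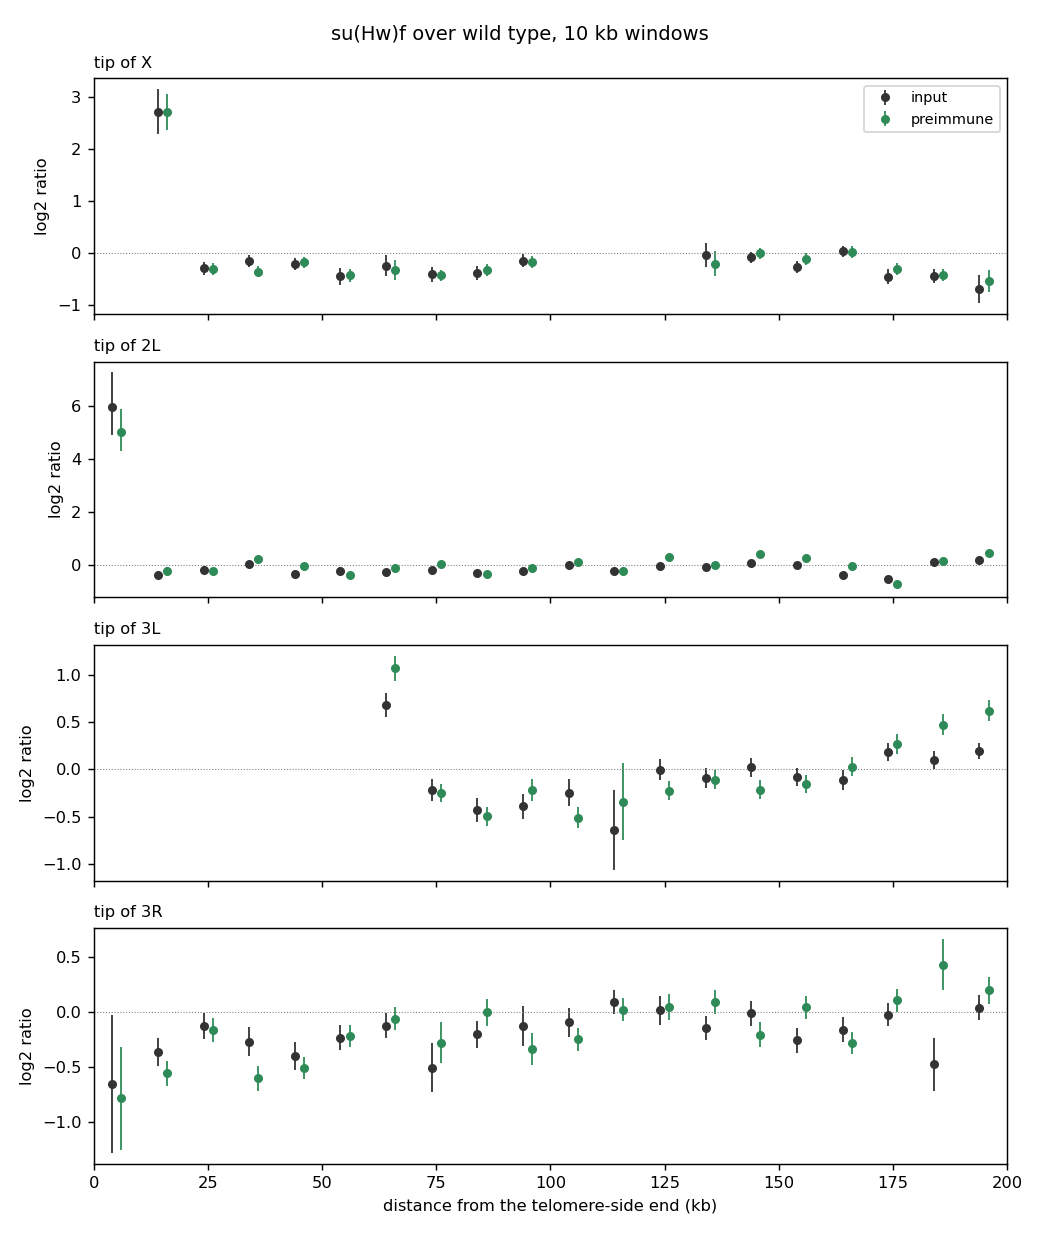
su(Hw)f over wild type as a log2 ratio (vertical axis) in 10 kb windows along each tip, in input and preimmune, with 95% counting intervals. Windows with under 50 reads together or with a library at 0 are not drawn, so 3L has no points from 20 kb to 60 kb. The outermost points of X and 2L stand far above 0, and most of the others out to 100 kb lie below it.

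A 1 kb window was called when the scaled libraries differed at least 2-fold and held at least 20 reads together. In input 50 of 659 tip windows tested were higher in the mutant (7.59%), against 0.227% over all windows of the major arms, and 25 were lower (3.79%), against 2.24%. Of the 50 higher windows 45 had no wild-type read and so passed the read minimum only through the mutant. Inward of the later start 1 of 607 was higher and 24 were lower. In preimmune 73 of 665 windows were higher in the mutant (11.0%, against 6.00% overall) and 57 were lower (8.57%, against 6.68%), and inward of the later start 19 were higher and 54 lower. Here 48 of the 73 higher windows had no wild-type read. The surplus of higher windows lay outward of the later start. That start was itself set by where the counts of these libraries begin, so this is a description only.

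The longest called runs were the outer stretches themselves. On 3L they were 40001 to 65000 and 29001 to 39000 in both kinds of library, with 22001 to 28000 in input and 19001 to 28000 in preimmune. On 2L 5001 to 10000 was higher in the mutant by 61.5-fold (29.7 to 154) in input and by 32.6-fold (19.7 to 58.6) in preimmune. On X the longest was 10001 to 13000. All 25 runs of lower windows in input were single 1 kb windows. In preimmune the longest lower runs were on 3R, where 27870101 to 27874100 was at 0.403 (0.350 to 0.463) and 27894101 to 27897100 at 0.323 (0.263 to 0.394), and 2 kb runs on X at 187001 to 189000 and on 2L at 175001 to 177000 were at 0.4555 and 0.430. On 2L 152001 to 154000 was 2.42-fold higher in preimmune (1.97 to 2.99).

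**Figure D4:**
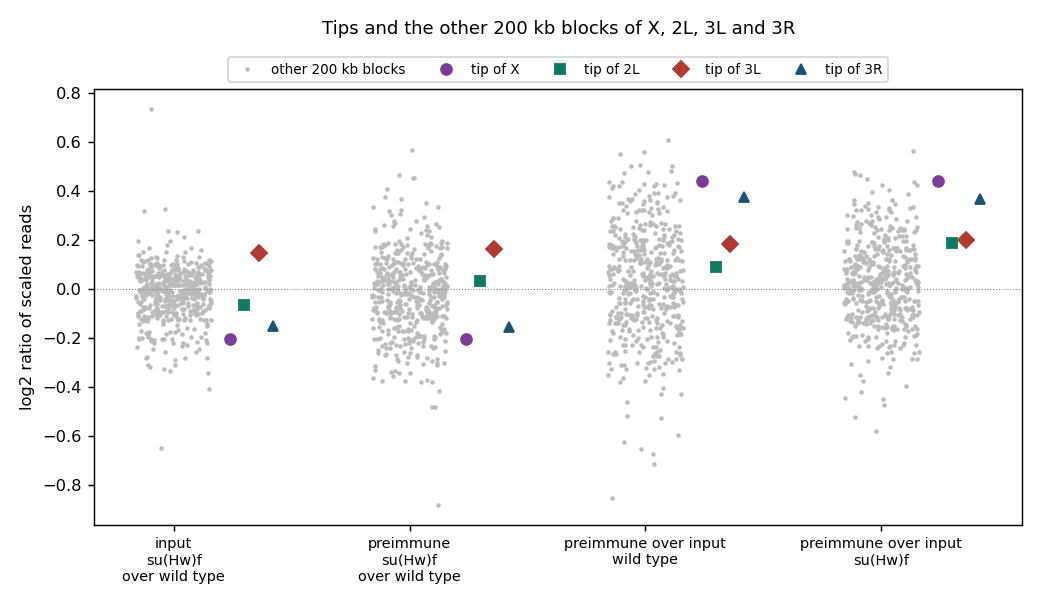
log2 ratio of scaled reads for the 4 tips (coloured symbols) and for the 484 other 200 kb blocks of the same arms (grey dots) in the 4 comparisons. The tips of X and 3R lie low in the comparisons between genotypes and high in preimmune over input, and 3L lies high between genotypes.

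Preimmune over input, which sets what the control serum brings down against the chromatin before precipitation, was above 1 on each tip in both genotypes. On X the ratio was 1.358 in wild type (1.326 to 1.391) and 1.359 in the mutant (1.331 to 1.387), and on 3R it was 1.298 and 1.292. It was lower on 3L, at 1.137 and 1.151, and on 2L, at 1.066 and 1.141. Of the 484 other 200 kb blocks, with medians of 1.018 in wild type and 1.016 in the mutant, 9 and 5 were above X and 28 and 11 above 3R. More were above the other tips, with 114 and 71 above 3L and 185 and 81 above 2L, so those lay well within the range of other blocks. The median log2 ratio over all 1 kb windows was 0.14 in the mutant, and relative to that shift the mutant ratios were 1.233 on X, 1.173 on 3R, 1.045 on 3L and 1.035 on 2L.

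The ratio was higher toward the end. Over the 4 tips, preimmune over input was 1.355 in wild type from the later start to 100 kb (1.333 to 1.377) and 1.08 from 100 kb to 200 kb (1.066 to 1.096). In the mutant it was 1.358 (1.340 to 1.377) and 1.114 (1.101 to 1.126). The outer value was higher on 4 of 4 arms in each genotype. By arm it was 1.463 on X, 1.422 on 3L, 1.405 on 3R and 1.213 on 2L in wild type, and 1.426, 1.418, 1.346 and 1.302 in the mutant. Of single 100 kb blocks outside the tips 95% were below 1.344 in wild type and 1.276 in the mutant, a limit that 2L did not pass in wild type. Here too the outer parts were shorter than the blocks. In the 10 kb windows, 27 of 28 outer ones were above 1 in wild type and 27 of 28 in the mutant, against 26 of 37 and 29 of 37 inner ones. On 3L from 22001 to 62000, where wild type had no reads, the ratio in the mutant was 1.398 (1.329 to 1.470).

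Input, the denominator of this ratio, changed along the tips too. Its level inward of the later start, over the 4 tips together, was 0.834 in the outer and 0.919 in the inner part in wild type, and 0.764 and 0.960 in the mutant. Preimmune stood at 1.138 in the outer and 1 in the inner part in wild type, and at 0.921 and 0.948 in the mutant. Over the 4 tips together the mutant preimmune level was thus not higher in the outer part, though on X it was (0.831 against 0.515). Input on the tip of X went the other way from the 4 tips together, at 0.736 and 0.4955 in wild type and 0.657 and 0.461 in the mutant. Empty windows count in these levels, and the inner part of X holds X 100201 to 137500, which is empty in all 4 libraries. At 190001 to 200000 of 3L input stood at 1.67 in wild type and 2.06 in the mutant, and preimmune at 0.960 and 1.40. On 2L the same distance gave 1.75 and 2.15 in input and 1.07 and 1.41 in preimmune. How far base composition or mapping moved with these levels was not tested, since no dm3 sequence was used here.

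**Figure D5:**
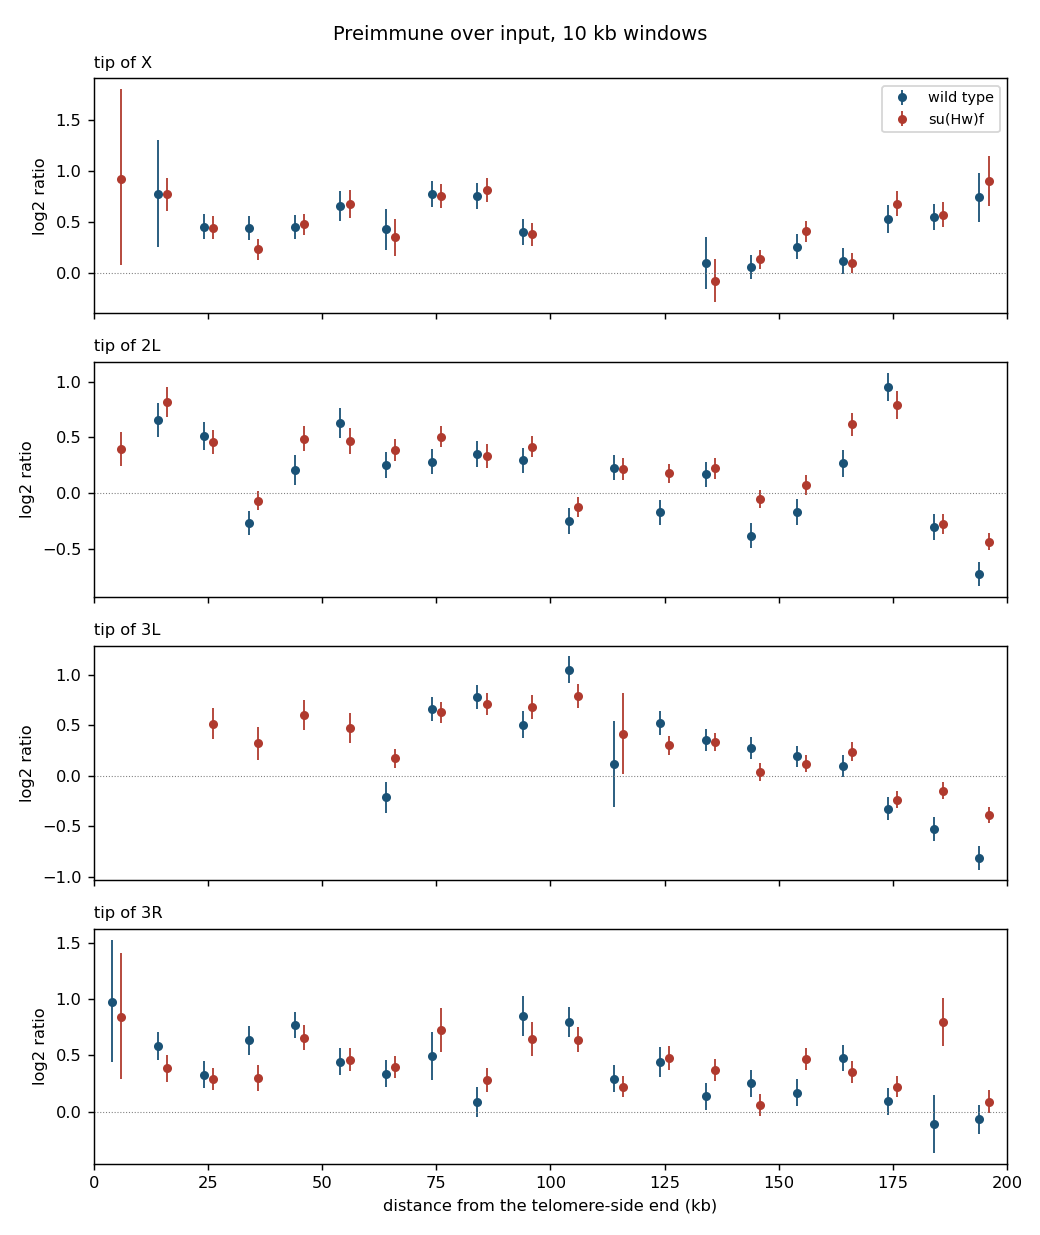
log2 ratio of preimmune over input in 10 kb windows along each tip in wild type and su(Hw)f, with 95% counting intervals. Points outward of 100 kb lie mostly above 0 in both genotypes, and on 2L and 3L the windows near 200 kb fall below 0.

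In 1 kb windows, preimmune was called higher than input in 112 of 614 tip windows in wild type (18.2%, against 9.76% of all windows) and lower in 28 (4.56%, against 10%). In the mutant 101 of 665 were higher (15.2%, against 6.84%) and 5 lower (0.752%, against 3.33%). Scaled to the median ratio, the mutant had 68 higher and 8 lower. The shares over all windows are for scaling to the totals, and none is given for this scaling. Preimmune was higher in both genotypes in 43 windows, which is 38.4% of the wild-type and 42.6% of the mutant windows called higher, and lower in both in 0. Over all windows of the major arms the counts were 3730 higher in both, or 33.5% and 47.9%, and 2531 lower in both. The overlap of higher windows in the tips was thus near that elsewhere. The 2531 came from 11423 windows called lower in wild type and 3797 in the mutant, and the 0 in the tips from 28 and 5. The log2 ratios of the genotypes, which share no library, had a Pearson r of 0.642 and a Spearman rho of 0.647 across 611 windows, given as a description since neighbouring windows are not independent.

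The 3 windows called in both genotypes with the highest mean log2 ratio all lay on X. X 159001 to 160000 was at 3.24 in wild type (2.20 to 4.89, from 101 preimmune and 36 input reads). In the mutant it was at 6.07 (3.80 to 10.2, from 124 and 21 reads). X 98001 to 99000 was at 5.29 (3.20 to 9.21) and 3.02 (1.71 to 5.59), and X 177001 to 178000 at 2.11 (1.32 to 3.45) and 6.37 (3.67 to 11.8). All rested on under 40 input reads in either genotype. Among runs, wild-type preimmune was 2.68-fold over input at 2L 174001 to 178000 (2.33 to 3.10) and 3.72-fold at 3R 27894101 to 27897100 (2.92 to 4.78). In the mutant it was 3.73-fold at 2L 16001 to 20000 (2.55 to 5.59), 3.61-fold at 3L 19001 to 22000 (2.44 to 5.49) and 2.30-fold at X 75001 to 79000 (1.98 to 2.68).

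The 4 tips together held more windows without reads than the rest of the arms. Windows of 100 bp at 0 made up 27.1% in wild-type preimmune (26.2% to 28.1%), 26.2% in wild-type input (25.2% to 27.1%), 21.1% in mutant preimmune (20.2% to 22.01%) and 21.5% in mutant input (20.6% to 22.4%). Elsewhere on these arms the share was between 7.30% and 9.56%. The tip of 2L lay closest to this, at 10.8% and 9.6% in wild-type preimmune and input. In the mutant it was at 8.15% and 8.55%, against 8.49% and 8.46% elsewhere. On X the share was 38.8% to 40.2% and on 3R 17.65% to 18.75%. On 3L it was 38.8% and 38.6% in wild-type preimmune and input, and 19.6% and 19.75% in the mutant. Of the 8000 tip windows 1519 were empty in all 4 libraries, 496 were empty in both wild-type libraries with reads in at least 1 mutant library, and 52 the other way round. The tip of 3L held 402 of the 496.

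Long runs without reads inward of the starts were shared by the genotypes. The longest was X 100201 to 137500, which was 37.3 kb long and empty in all 4 libraries, and X 57101 to 62100 and X 189901 to 197500 were empty too. On 3L 110301 to 119300 had no reads, and on 3R 27823801 to 27831100 and 27714601 to 27722900 had none. Unknown bases in the assembly, dropped repeat reads and missing DNA cannot be told apart in these runs.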

How the data were processed

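Per the file headers, the authors deposited wiggle files, 1 per library, with read counts per 100 bp window. The counts are whole numbers and were not scaled. The submitters' processing notes name the build dm3 and Partek 6.5. How reads were aligned, and whether duplicates or reads matching repeats were dropped, is not given in the sources used here. Libraries had 15 PCR cycles and fragments of about 250 bp per the labels, which name the Su(Hw) antibody also for preimmune and input.

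Counts were scaled to reads on the major arms and summed to 1 kb, 10 kb, 40 kb, 100 kb and 200 kb with Python 3.11.15, numpy 2.4.6 and scipy 1.17.1. Windows on 3R were counted from its end. Ratios carry 95% exact conditional (Clopper-Pearson) intervals, shares Clopper-Pearson intervals, and 0 reads a floor of 3 counts per library. PCR reads are not independent molecules. In simulated counts with Poisson scatter only, the calling rule recovered 100 of 100 windows changed 3-fold in each comparison and called between 64 and 77 unchanged windows among 120378 simulated. The changed windows were picked among those with at least 100 reads, so sparser windows were not checked. The start rule recovered 200 of 200 starts in each library. Those tips went from 0 to 50% of the median or more at a sharp edge. Gradual starts and levels near the 25% limit, as on the real tips, were thus not checked.

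The members and rules were chosen with earlier results of these data known, and the stretches described on each tip, the 40 kb and 100 kb blocks and the split at 100 kb after seeing the values. Named windows were the starts, the 3 longest called runs per tip and comparison (single-window runs are given by count, and for preimmune over input the longest ones), the 3 highest windows called in both genotypes, the fullest windows and shared empty runs of 5 kb or more. Gene order came from RefSeq Release 6. Alternatives covered scaling, count minimum, window size, tip length and the start rule.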

Additional observations from a re-analysis of the deposited data

Results flagged for a closer look

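At 2L 64001 to 65000 preimmune over input was called in opposite directions in the genotypes. The ratio was 0.274 in wild type (0.116 to 0.576), with 9 preimmune and 38 input reads, and 2.26 in su(Hw)f (1.39 to 3.79), with 55 and 25. The difference was not tested. No other tip window of 1 kb was called in opposite directions. Of the 800 tip windows only 614 held enough reads for a wild-type call and 665 for a mutant call. The number of such windows over the major arms is not given here, so whether 1 is few or many cannot be said.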

How the results depend on the processing

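No paired analysis was possible because each group had 1 library and the labels carry no replicate numbers. Several ratios near 1 crossed it. Median scaling did so for the 4 tips in input (0.961 to 1.007) and for 2L in input (0.956 to 1.001) and preimmune (1.023 to 0.990, or 0.975 with tips of 100 kb), and leaving out windows outward of the later start did so for 3L in input (1.107 to 0.977) and preimmune (1.121 to 0.959). Of 48 start values 42 kept within the set range, as did 37 of 48 counts of called windows, 48 of 80 ratios of single tips and 9 of 20 ratios of the 4 tips together.

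For the 4 tips together, scaling to the median 1 kb ratio moved the genotype ratio, mutant over wild type, to 1.007 (input) and 0.947 (preimmune). It moved preimmune over input to 1.179 for wild type and 1.102 for the mutant. Tips of 100 kb gave 0.951, 0.9555, 1.361 and 1.367 in that order. Inward of the later start, an alternative added after seeing the data, gave 0.921 in input, 0.932 in preimmune and 1.204 for mutant preimmune over input.

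Windows of 2 kb gave 27 higher and 7 lower in input, 32 and 14 in preimmune, and, comparing preimmune with input, 42 and 4 for wild type and 31 and 1 for the mutant. The windows tested numbered 317 to 344 in place of 614 to 665, and the cause of the drop in calls was not tested. Inward of the later start the higher windows numbered 1 in input and 19 in preimmune. Median scaling gave 8 lower windows for mutant preimmune over input.

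At 50% of the median, mutant input started at 7 kb on 2L and 18 kb on 3R, and wild-type input at 12 kb and 11 kb. At 10% wild-type preimmune started at 62 kb on 3L and 7 kb on 3R, and mutant preimmune at 19 kb on 3L, or 20 kb with 1 window. Counting windows with at most 1 read gave 29.0%, 27.7%, 22.8% and 24.9% for preimmune and input of wild type and then of the mutant. The cause was not tested for the other moved values. Low-count stretches such as 3R 27895101 to 27899100 limit what depth can show, and intervals leave out variation between animals and libraries.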

Other observations

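By its mean over the libraries, the fullest 1 kb window of the tips lay near the inner edge of 2L. There 195001 to 196000 had 153 reads for wild-type preimmune and 294 for its input, 250 for mutant preimmune and 593 for its input, or 1.58, 2.60, 1.47 and 3.83 times the library medians. On 3L the fullest was 68001 to 69000, just inward of the wild-type start, at 1.505, 1.735, 1.65 and 2.465 times. On X it was 43001 to 44000 and on 3R 27883101 to 27884100, at means over the libraries of 1.48 and 1.61 times.

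At 3R 27809101 to 27810100 mutant preimmune held 0 reads and mutant input 25, while wild type held 12 and 17. In X 100001 to 110000 wild-type preimmune held 16 reads, mutant preimmune 0 and the inputs 1 each.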
